A study of Arabidopsis thaliana with 18 samples.

Results

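The comparison described here sets the 3 libraries of the double mutant yak1lst8-1 against the 3 libraries of the single mutant yak1, that is 6 of the 18 RNA-seq libraries of an Arabidopsis thaliana series. Members were chosen by their titles alone, and no measured value entered the choice. LST8 is a small WD40-repeat subunit that binds and stabilises the kinase TOR (target of rapamycin), which couples nutrient and energy supply to growth in plants as in other eukaryotes. Arabidopsis has a pair of LST8 genes, of which LST8-1 is the expressed copy, and lst8 mutants are known for slow growth and for poor adaptation to long days. YAK1 is a protein kinase of the DYRK family that acts downstream of TOR, and loss of YAK1 lessens the effects of TOR inhibition. The comparison therefore asks which part of the response to loss of LST8-1 is present when YAK1 is also mutated.

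Each yak1lst8-1 plant carries mutations in both genes, whereas each yak1 plant carries the YAK1 mutation alone, so the yak1 mutation is shared by both groups. The response with YAK1 unmutated was taken from 3 lst8-1 and 3 Col0 libraries of the same series. The 4 genotypes are in the Col0 background, and the series holds 6 genotypes in all. RNA came from untreated whole plants at an early rosette stage, grown in vitro at 20 °C in days with 16 h of light on medium with 0.3 % sucrose. The labels do not say how each mutation was made, and they name 1 line per genotype. In whole plants, fewer cells of a type and less RNA per cell cannot be told apart. The titles number 3 libraries per genotype while the design text gives 2 biological replicates, so p-values measure the spread between these libraries, which may be technical. The 3 yak1lst8-1 libraries held 17218178, 10801464 and 14840558 counted reads, and the 3 yak1 libraries held 14260533, 12414300 and 15834555. Levels are CPM, counts scaled to a common library total, after scaling by the trimmed mean of M values, and a gene was called when its p-value from edgeR's quasi-likelihood test, adjusted by the Benjamini-Hochberg method over 20619 genes, was below 0.05. Replicates 1 and 3 of yak1 differed most among these 6 libraries, with a chi-square per degree of freedom of 21.9 against 3.35 to 11.6 for the other pairs within a genotype.

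The LST8-1 transcript matched the labels. LST8-1 (AT3G18140) stood at 1.63, 2.02 and 0.928 CPM in the yak1lst8-1 libraries, against 52.7, 53.3 and 49.2 CPM in the yak1 libraries. The groups lay far apart, and the log2 fold change was -5.10 ± 0.13 (SE, adjusted p = 9.44e-15). Its paralogue LST8-2 had no read in any library, which allows at most 0.174 to 0.278 CPM in these 6 libraries. The YAK1 (AT5G35980) transcript was not low in the lines labelled yak1: it stood at 409, 336 and 265 CPM in yak1lst8-1 and at 398, 320 and 247 CPM in yak1, against means of 128 CPM in lst8-1 and 122 CPM in Col0. Gene-level counts of YAK1 therefore do not check the yak1 label, and the difference between yak1lst8-1 and yak1 was 0.07 ± 0.16 on the log2 scale (adjusted p = 0.885).

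Of the 9 tested genes for TOR complex subunits, S6 kinases and YAK1, LST8-1 alone was called, where 2.99 % of all tested genes were. TOR itself averaged 82.3 ± 2.0 CPM in yak1lst8-1 and 73.3 ± 2.6 CPM in yak1 (SD, n = 3 each), a log2 difference of 0.17 ± 0.13 with adjusted p = 0.581. RAPTOR1, the subunit that recruits TOR substrates, differed by 0.19 ± 0.09 (adjusted p = 0.363), and its paralogue RAPTOR2 by 0.36 ± 0.12 (adjusted p = 0.118). S6K1, a kinase that TOR phosphorylates, stood at 98.8, 99.0 and 106 CPM in yak1lst8-1, against 76.5, 81.3 and 88.3 CPM in yak1. The S6K1 groups did not overlap, and its difference of 0.30 ± 0.08 missed the threshold at adjusted p = 0.0514. S6K2, the TOR effector TAP46 and the rapamycin-binding protein FKBP12 differed by 0.10 ± 0.13, -0.18 ± 0.07 and -0.02 ± 0.09, with adjusted p of 0.765, 0.181 and 0.932.

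**Figure D1:**
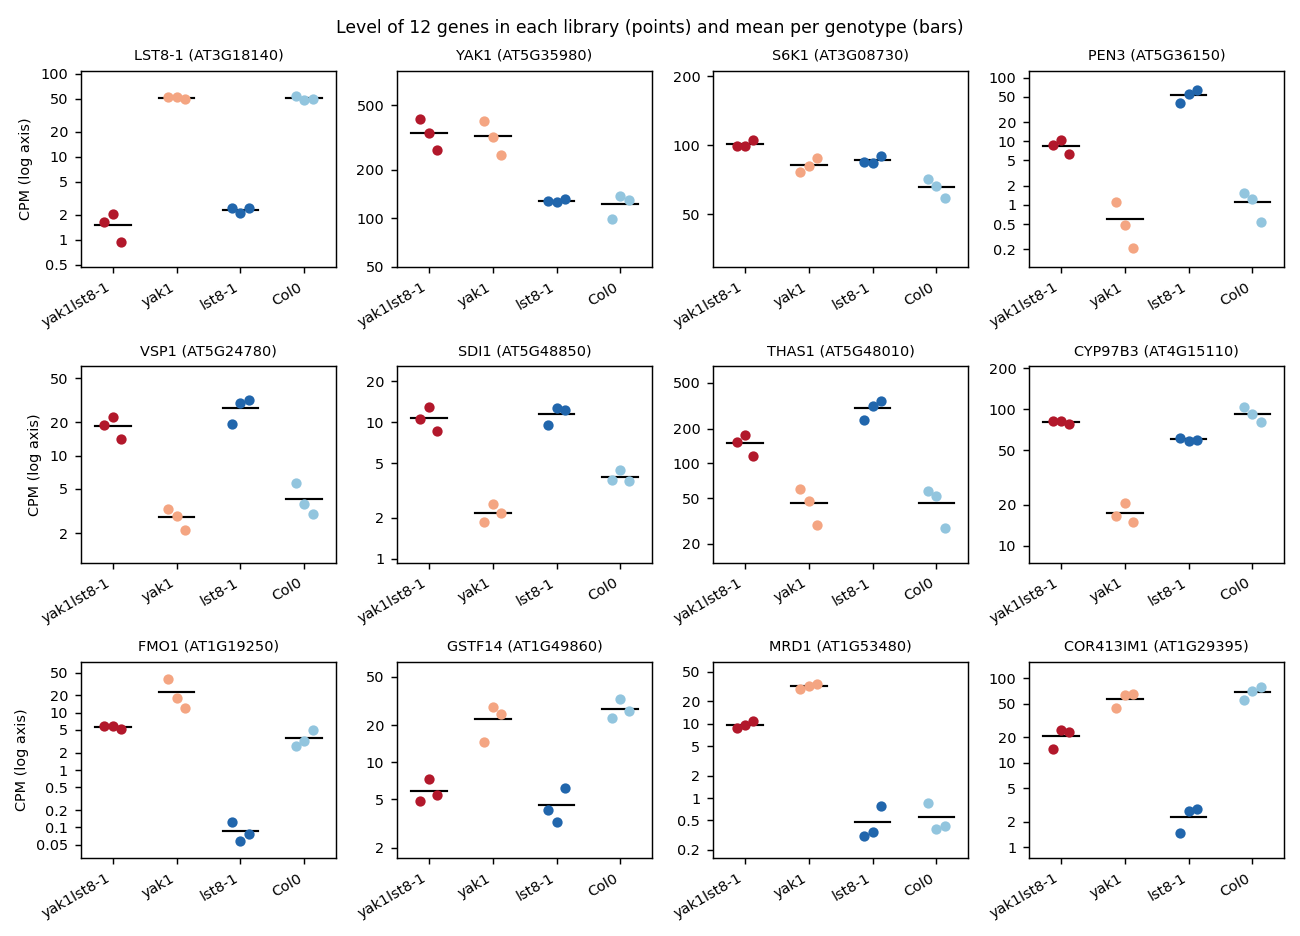
Level of 12 genes in CPM (log axis) in every library of yak1lst8-1, yak1, lst8-1 and Col0; points are libraries and bars are means of 3. LST8-1 lies below 2.5 CPM in every yak1lst8-1 and lst8-1 library and near 50 CPM in the others, while YAK1 is higher in both lines that carry yak1.

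Between yak1lst8-1 and yak1, 616 genes were called, of which 387 were higher (1.88 % of the genes tested) and 229 were lower (1.11 %) in yak1lst8-1. Of these, 127 were higher and 41 lower by at least 2-fold (0.616 % and 0.199 %). The counts depended on single libraries: 299 genes were called without yak1lst8-1 replicate 2, 306 without yak1 replicate 2 and 358 without yak1 replicate 1. Libraries of both groups did not overlap for 4171 genes (20.2 %). The median log2 fold change over all tested genes was 0.00.

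With YAK1 unmutated, 5673 genes (27.5 %) were called between lst8-1 and Col0, 2902 higher (14.1 %) and 2771 lower (13.4 %) in lst8-1, in the same model and with the same number of libraries. The median absolute log2 fold change over all genes was 0.13 for yak1lst8-1 against yak1 and 0.22 for lst8-1 against Col0, and the 90th percentiles were 0.48 and 0.86. The difference between both responses was itself tested as an interaction, and 714 genes (3.46 %) were called, 435 with a positive difference (2.11 %) and 279 with a negative difference (1.35 %). Of these 714, 694 were also called in lst8-1 against Col0, and in each of the 694 the response in the yak1 background was shifted against the lst8-1 direction. The interaction and lst8-1 against Col0 use the same lst8-1 and Col0 libraries, so that direction is not independent of the call. A further 12 of the 714 were called in neither response and 8 only in yak1lst8-1 against yak1. The number of interaction calls was 347 to 468 without yak1lst8-1 replicate 2 or 3, yak1 replicate 1 or 2, lst8-1 replicate 1 or 2, or Col0 replicate 2.

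The remaining response largely followed the direction of the lst8-1 response. Of the 616 genes changed in yak1lst8-1, 520 (84.4 %) were called in the same direction in lst8-1 against Col0, which is 9.17 % of the lst8-1 calls. A further 91 were not called in lst8-1 against Col0, and 79 of these had the same sign there. Of the 1366 genes (6.62 % of those tested) changed at least 2-fold in lst8-1, 258 (18.9 %) were called in the same direction in yak1lst8-1 and 2 in the opposite direction. Signed by the lst8-1 direction, their median log2 fold change was 1.46 in lst8-1 against Col0 and 0.51 in yak1lst8-1 against yak1. These 1366 genes were chosen for their size in lst8-1, which by itself makes the first median the larger. Chosen the other way, the 168 genes changed at least 2-fold in yak1lst8-1 had medians of 1.44 in yak1lst8-1 against yak1 and 2.02 in lst8-1 against Col0. Of those 168, 148 (88.1 %) were called in the same direction in lst8-1 and 22 were called in the interaction. In 18 of these 22 the fold change was larger in the Col0 background and in 4 in the yak1 background. Across all 20619 genes, which are not independent replicates, Pearson's r between both log2 fold changes was 0.55.

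**Figure D2:**
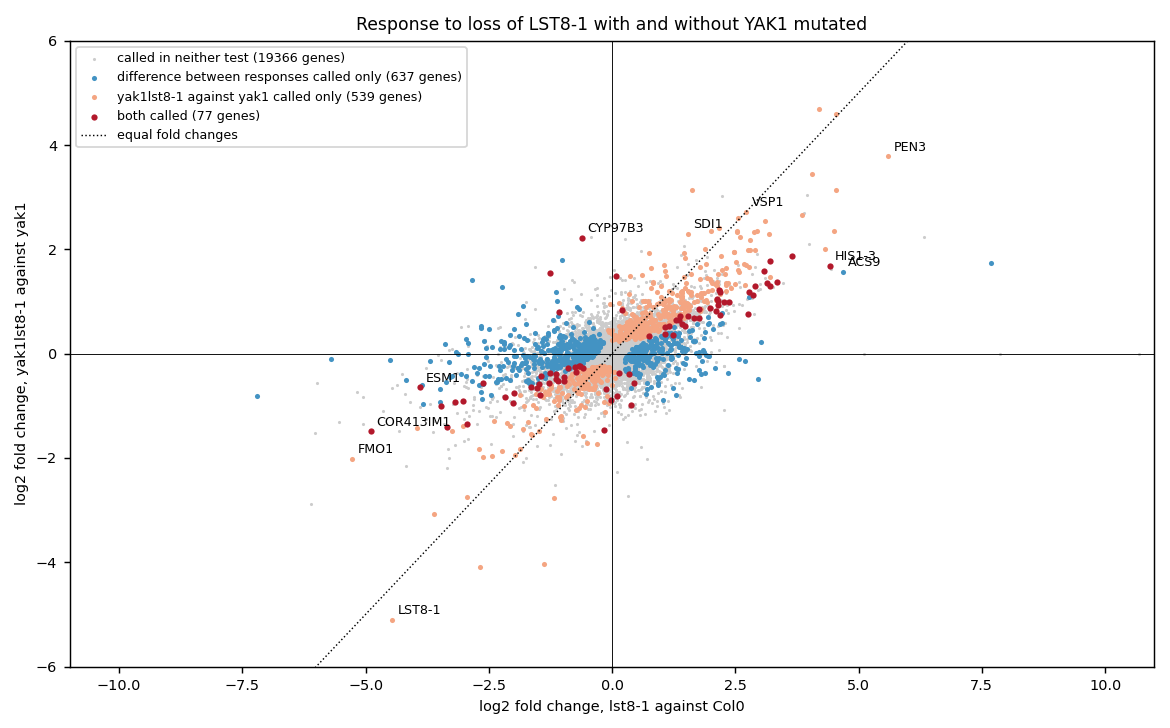
Log2 fold change of yak1lst8-1 against yak1 (vertical) and of lst8-1 against Col0 (horizontal) for all 20619 tested genes, coloured by the calls of edgeR's quasi-likelihood test; the dotted line marks equal fold changes. The 714 genes whose response differs lie mostly nearer to 0 on the vertical than on the horizontal axis, and CYP97B3 lies on opposite sides of 0.

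The 8 largest rises among called genes that reached 5 CPM and whose groups did not overlap were those of PEN3, VSP1, DAA1, SDI1, CYP97B3, GAT1_2.1, VSP2 and PYD4; SDI1 and CYP97B3 are described below. PEN3 (AT5G36150, a putative pentacyclic triterpene synthase; the annotation gives the same symbol to other genes) stood at 8.80, 10.3 and 6.42 CPM in yak1lst8-1, against 1.104, 0.487 and 0.208 CPM in yak1. The lowest double mutant library was well above the highest yak1 library, and the log2 fold change was 3.78 ± 0.41 (adjusted p = 0.000115). VSP1, a jasmonate-induced vegetative storage protein, stood at 18.9, 22.1 and 14.0 CPM in yak1lst8-1 and at 3.31, 2.84 and 2.15 CPM in yak1, a log2 fold change of 2.72 ± 0.32 (adjusted p = 0.000216). Its close paralogue VSP2 rose by 2.00 ± 0.33 (adjusted p = 0.00218), and reads of this gene pair may not be fully separated by the counting. DAA1, an ATPase of the AAA type, rose by 2.54 ± 0.26 (adjusted p = 3.21e-05). PYD4, an aminotransferase of pyrimidine breakdown, rose by 1.95 ± 0.34 (adjusted p = 0.0037). GAT1_2.1, a class I glutamine amidotransferase, stood at 16.9, 8.76 and 8.35 CPM in yak1lst8-1 and at 5.59, 1.95 and 0.972 CPM in yak1. Its groups did not overlap, but the call at adjusted p = 0.0168 ended without yak1lst8-1 replicate 1 or yak1 replicate 2, at adjusted p of up to 0.0865. The GAT1_2.1 call also ended in a fit of only the 6 libraries compared (adjusted p = 0.214).

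By the same rule, the 8 largest falls were those of LST8-1, of PR2, FMO1 and ALD1, described below with salicylic acid defence, and of GSTF14, COR413IM1, MRD1 and COR27. GSTF14, a glutathione transferase, stood at 4.84, 7.32 and 5.42 CPM in yak1lst8-1, against 14.7, 28.4 and 24.9 CPM in yak1. The difference of -1.97 ± 0.30 (adjusted p = 0.00191) was of similar size to that of lst8-1 against Col0, -2.62 ± 0.30. COR413IM1, a cold-regulated protein of the chloroplast inner envelope, stood at 14.4, 24.5 and 22.8 CPM in yak1lst8-1 and at 44.6, 62.5 and 64.3 CPM in yak1. It fell by 1.49 on the log2 scale here (SE 0.20, adjusted p = 0.000738) and fell by 4.89 in lst8-1 (SE 0.26), and the interaction was 3.40 ± 0.34 (adjusted p = 7.59e-05). MRD1, a gene of unknown function, stood at 8.74, 9.62 and 10.8 CPM in yak1lst8-1 and at 29.8, 32.6 and 34.4 CPM in yak1. Its fall of 1.73 on the log2 scale (SE 0.16, adjusted p = 1.22e-05) was between lines that both carry yak1 and both had high levels, since MRD1 averaged 0.477 CPM in lst8-1 and 0.559 CPM in Col0. COR27, a cold-regulated gene under clock control, had 2.74, 2.503 and 1.71 CPM in yak1lst8-1 and 10.3, 5.76 and 4.65 CPM in yak1, with a log2 fold change of -1.57 ± 0.39 (adjusted p = 0.0418). The COR27 call ended without any of the 3 yak1lst8-1 libraries and without yak1 replicate 1 or 2, at adjusted p of up to 0.196.

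5 genes were called in opposite directions in both backgrounds; apart from CYP97B3 they were named after their values were seen. CYP97B3, a cytochrome P450 of the carotenoid hydroxylase family, stood at 82.1, 82.6 and 77.6 CPM in yak1lst8-1, against 16.6, 20.6 and 14.9 CPM in yak1. The same gene averaged 60.3 CPM in lst8-1 and 92.1 CPM in Col0, so the yak1 libraries alone were low. Its log2 fold change was 2.22 ± 0.11 in the yak1 background (adjusted p = 4.42e-10) and -0.61 ± 0.10 in the Col0 background, with an interaction of 2.83 ± 0.15 (adjusted p = 2.46e-09). The beta-glucosidase gene BGLU1 differed by 0.80 in the yak1 background and -1.07 in Col0, and RSU1 by 1.54 and -1.25 at about 1 CPM or less. AT4G04410 differed by -0.39 and 0.34, and AT5G52070 by -0.56 and 0.45. The interaction was called for all 5, with adjusted p of at most 0.0109.

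**Figure D3:**
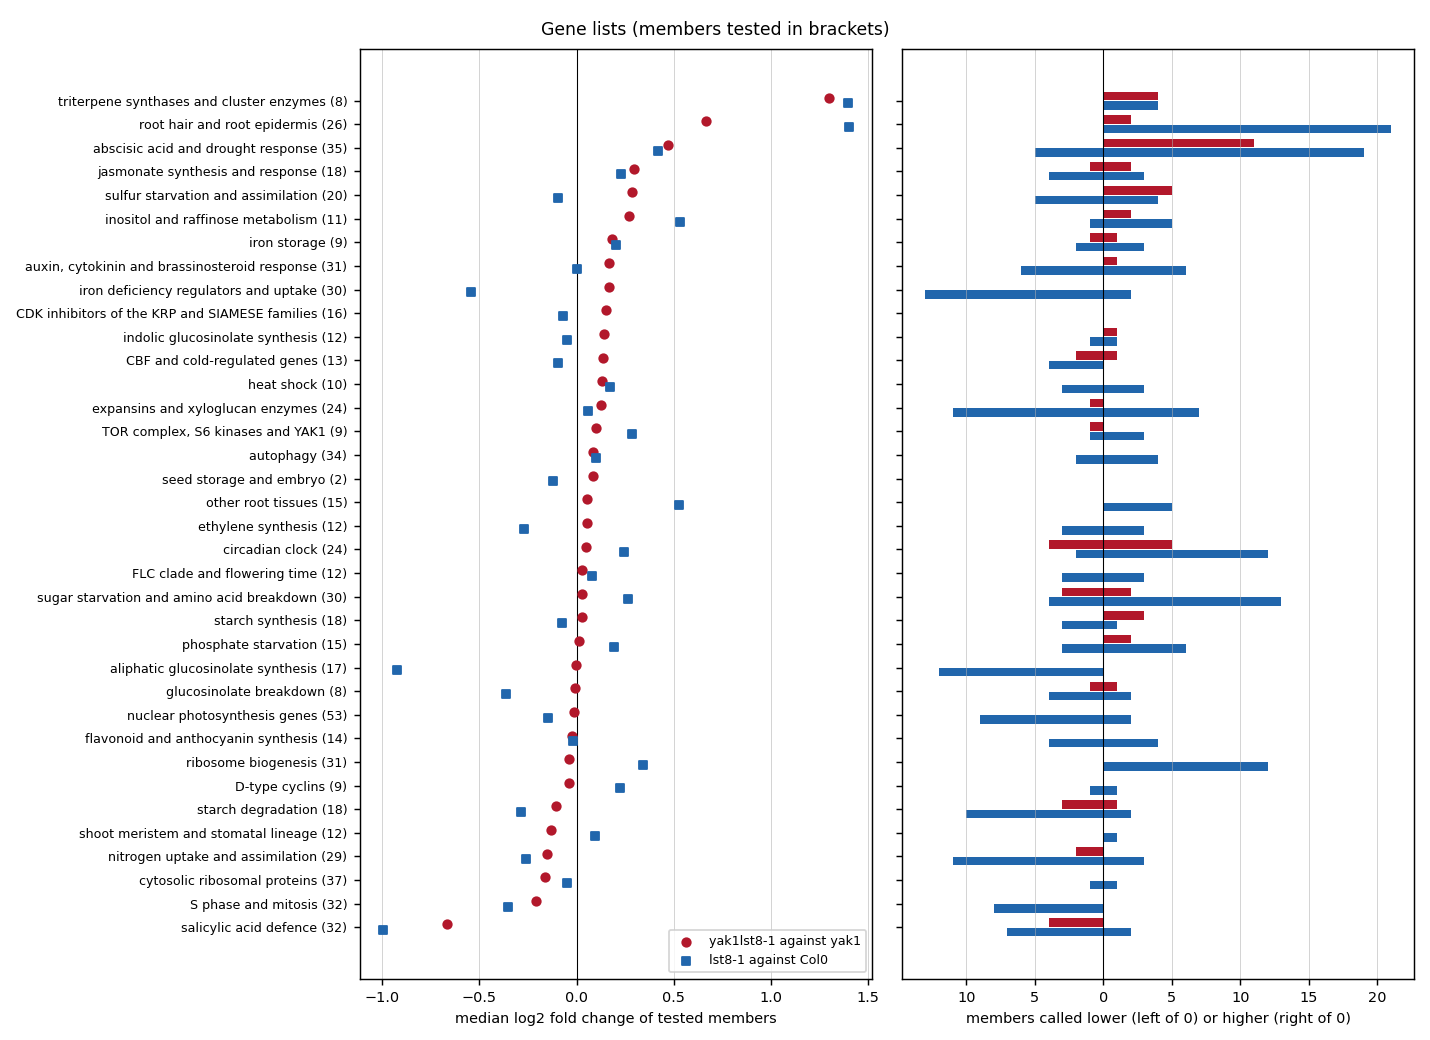
Median log2 fold change (left) and number of members called lower or higher (right) for 36 gene lists, for yak1lst8-1 against yak1 (circles, upper bars) and lst8-1 against Col0 (squares, lower bars). Abscisic acid genes have 11 members called higher in yak1lst8-1. Iron deficiency, aliphatic glucosinolate and ribosome biogenesis genes have none called in that comparison, where 2.99 % of all tested genes were called.

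Triterpene genes formed the list with the highest median. Of 8 tested triterpene synthases and cluster enzymes, all 8 had positive log2 fold changes. The median was 1.297, against 0.00 over all genes, and 4 were called higher, against 1.88 % of all tested genes. THAS1, THAH and THAD encode the synthase and oxidising enzymes of thalianol, a root triterpene, and lie side by side on chromosome 5. THAS1 stood at 154, 177 and 116 CPM in yak1lst8-1 and at 60.2, 47.2 and 29.4 CPM in yak1 (1.71 ± 0.29, adjusted p = 0.00465). THAH rose by 1.53 ± 0.24 (adjusted p = 0.00242) and THAD by 1.18 ± 0.17 (adjusted p = 0.00124). The lowest double mutant library exceeded the highest yak1 library for each of these genes. In a fit of only the groups compared, that is of these 6 libraries, THAS1 and THAH missed the threshold (adjusted p = 0.0558 and 0.0513). All 4 called genes, PEN3 included, were also called higher in lst8-1 against Col0. The summed level of the list was 539 to 706 CPM in yak1lst8-1 and 222 to 271 CPM in yak1.

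Most root hair genes were higher in yak1lst8-1 without passing the test. Of 26 tested root hair and root epidermis genes, 25 had positive log2 fold changes with a median of 0.67. RHS18 and RSL4 were called higher, against 1.88 % of all tested genes. At an unadjusted p under 0.05 15 were higher, and DESeq2 called 6 higher. None was called without yak1lst8-1 replicate 1 or without yak1 replicate 1 or 2. The summed level was 1051 to 1114 CPM in yak1lst8-1 and 521 to 891 CPM in yak1, without overlap. RHS18, a root hair specific peroxidase gene, had 48.1, 40.4 and 33.3 CPM in yak1lst8-1 and 15.2, 14.0 and 21.7 CPM in yak1 (1.26 ± 0.27, adjusted p = 0.0203). RSL4, the transcription factor that sets root hair growth, differed by 0.81 ± 0.20 (adjusted p = 0.0325). Both calls ended without yak1lst8-1 replicate 1 and without yak1 replicate 1 or 2, at adjusted p of up to 0.0946 for RHS18 and 0.14 for RSL4; RHS18 also needed yak1lst8-1 replicate 2 and RSL4 yak1lst8-1 replicate 3. In lst8-1 against Col0, 21 of the 26 were called higher, and the interaction was called for RSL4 (-1.29 ± 0.27, adjusted p = 0.0147). Of 15 genes of other root tissues none was called, with none at an unadjusted p under 0.05 and none by DESeq2, and their summed level was 243 to 331 CPM in yak1lst8-1 and 224 to 328 CPM in yak1. Of 12 shoot meristem and stomatal genes none was called (1 higher at an unadjusted p under 0.05, none by DESeq2), and 13 of 15 seed storage and embryo genes were too low to test. The part of root hair cells in the triterpene result was not tested.

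Abscisic acid (ABA) and drought response genes gave the largest number of calls of any list. Among 35 tested members 11 were called higher and none lower, against 1.88 % and 1.11 % of all tested genes. The median log2 fold change of the list was 0.47. Leaving out any 1 library left 9 to 13 higher and none lower. At an unadjusted p under 0.05 18 were higher and 2 lower. DESeq2 called 13 higher and 1 lower, and a replicate block 15 higher and 1 lower. Of the 11, 10 were also called higher in lst8-1 against Col0. ATHB7, a homeodomain factor induced by ABA, stood at 27.5, 24.7 and 25.9 CPM in yak1lst8-1, against 10.6, 13.2 and 16.2 CPM in yak1 (0.97 ± 0.15, adjusted p = 0.00138). ABF3, a bZIP factor that binds ABA-responsive elements, stood at 50.1, 46.6 and 42.8 CPM in yak1lst8-1 and at 31.3, 28.7 and 32.4 CPM in yak1 (0.59 ± 0.10, adjusted p = 0.00174). Neither gene's groups overlapped, and the interaction was called for neither (adjusted p = 0.185 for ATHB7 and 0.659 for ABF3).

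The interaction was called for 6 of the 35 ABA genes, 5 negative and 1 positive. The negative ones were HIS1-3 and CYP707A1, which rose less than in lst8-1, and CYP707A2 (-1.38), CYP707A4 (-1.84) and ABF4 (-0.50), which were called higher in lst8-1 against Col0 and not called in yak1lst8-1 against yak1. The positive one was ERD10 (0.73). HIS1-3, a drought-induced linker histone, stood at 5.36, 5.005 and 4.14 CPM in yak1lst8-1 and at 1.93, 1.22 and 1.32 CPM in yak1. Its log2 fold change was 1.69 ± 0.24 (adjusted p = 0.000704) here and 4.42 ± 0.18 in lst8-1 against Col0, with an interaction of -2.73 ± 0.33 (adjusted p = 0.000134). CYP707A1, which inactivates ABA by hydroxylation, stood at 14.4, 11.8 and 9.07 CPM in yak1lst8-1 and at 6.69, 6.08 and 5.76 CPM in yak1. It rose by 0.93 ± 0.14 (adjusted p = 0.00116) here and by 2.14 ± 0.13 in lst8-1, with an interaction of -1.21 ± 0.20 (adjusted p = 0.00279). Other called members, named after their values were seen, were the phosphatase genes ABI2 (0.72 ± 0.13, adjusted p = 0.00449), HAB1 (0.65 ± 0.12, adjusted p = 0.00455) and HAI1, the ABA-induced RD29A (0.96 ± 0.18, adjusted p = 0.00575), ATHB12 (1.05 ± 0.19, adjusted p = 0.00329), the proline synthesis gene P5CS1 and LEA7. LEA7, a late embryogenesis abundant protein gene, was at 7.23, 3.08 and 1.36 CPM in yak1lst8-1 and at 0, 0.162 and 0.278 CPM in yak1 (adjusted p = 0.00573), where the 0 allows up to 0.21 CPM. The P5CS1 and HAI1 calls ended without yak1lst8-1 replicate 2 or yak1 replicate 1 or 2, and for HAI1 also without yak1lst8-1 replicate 1 or yak1 replicate 3, at adjusted p of up to 0.0698 for P5CS1 and 0.127 for HAI1. In a fit of only the groups compared, ABI2, RD29A and LEA7 missed the threshold (adjusted p = 0.0581, 0.0732 and 0.0718). RD29A was the called member not called in lst8-1 against Col0 (0.13 ± 0.17, adjusted p = 0.611). RD29A averaged 68 CPM in yak1lst8-1, 35 CPM in yak1, 76 CPM in lst8-1 and 70 CPM in Col0, so the yak1 libraries alone were low.

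**Figure D4:**
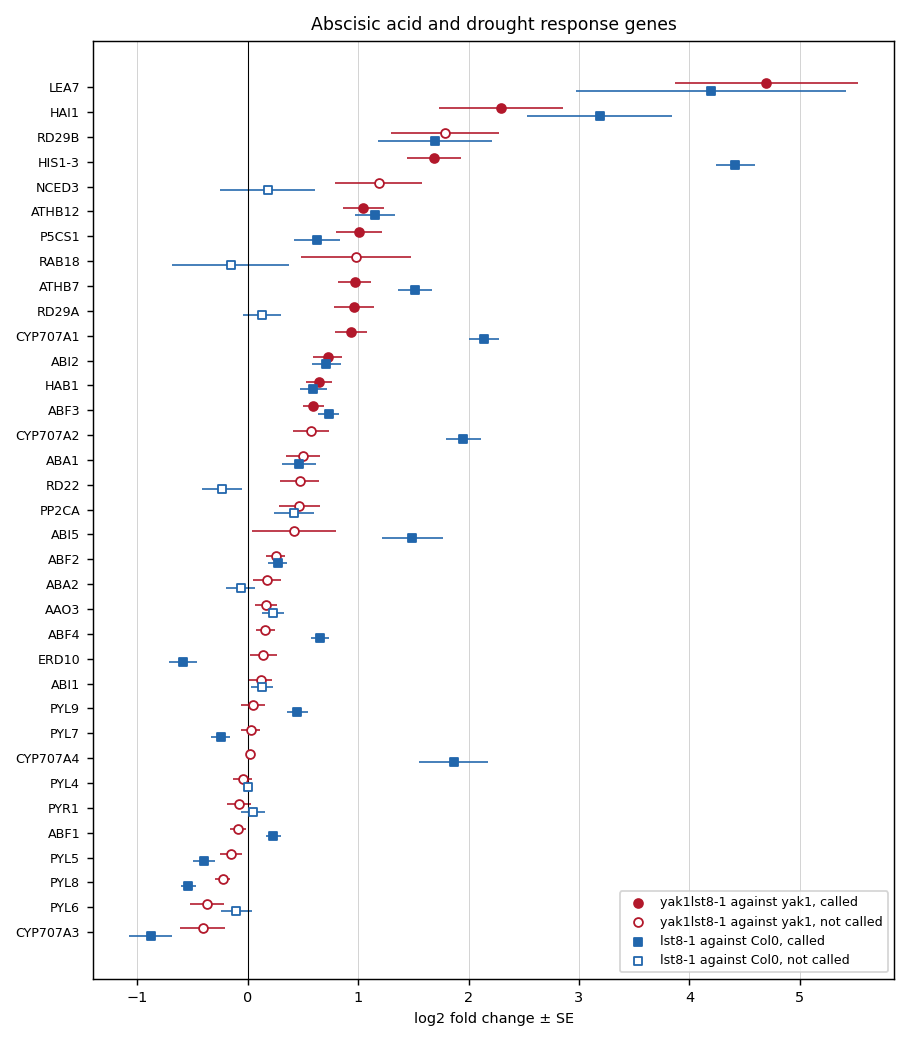
Log2 fold change ± SE of the 35 tested ABA and drought response genes in yak1lst8-1 against yak1 (circles) and lst8-1 against Col0 (squares); filled symbols are called, and SE is left out where the test statistic was near 0. All 11 called genes of the double mutant lie right of 0, and HIS1-3 and CYP707A1 lie farther right in lst8-1.

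Promoters of genes called higher held a G-box, the hexamer CACGTG bound by bZIP and bHLH factors, in 16.3 % of 387 windows, against 8.53 % of all 20504 windows and 10.5 % of 229 windows of genes called lower. The ABRE core ACGTGTC, which can overlap a G-box, occurred in 10.9 % of the genes called higher, 4.8 % of those called lower and 4.84 % of all. Also searched were the telo-box (AAACCCTA), the site II element (TGGGCC) and the SURE core (GAGAC). They occurred in 1.81, 8.27 and 27.9 % of the genes called higher and in 4.37, 14.0 and 26.2 % of those called lower. Over all windows they occurred in 5.39, 18.3 and 32.3 %. Windows ran from 250 bases before to 50 bases after the annotated gene start, and both strands were searched. The motifs were chosen after the gene values were seen. The promoters of HIS1-3 (chr2:7845673-7845942, plus strand), CYP707A1 (chr4:10521009-10521278, plus strand) and BAM9 (chr5:6225706-6225975, plus strand), a gene described with starch below, are shown. Each holds the G-box and the ABRE core in overlap near the start of a gene called higher. Sequences are from RefSeq TAIR10.1, 5′ to 3′ on the gene's strand, with the G-box and the ABRE core in capitals. Each match is a description of these letters and not of a bound site.
HIS1-3: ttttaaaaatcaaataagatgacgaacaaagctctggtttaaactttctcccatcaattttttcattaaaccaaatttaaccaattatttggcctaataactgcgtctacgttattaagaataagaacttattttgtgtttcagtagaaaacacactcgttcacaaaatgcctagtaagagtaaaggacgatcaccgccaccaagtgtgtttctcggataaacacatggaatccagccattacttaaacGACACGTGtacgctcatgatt
CYP707A1: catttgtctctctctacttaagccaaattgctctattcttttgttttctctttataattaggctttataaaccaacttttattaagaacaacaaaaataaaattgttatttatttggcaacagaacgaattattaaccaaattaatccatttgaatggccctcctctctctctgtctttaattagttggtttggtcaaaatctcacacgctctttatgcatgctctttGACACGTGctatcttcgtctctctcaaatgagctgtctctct
BAM9: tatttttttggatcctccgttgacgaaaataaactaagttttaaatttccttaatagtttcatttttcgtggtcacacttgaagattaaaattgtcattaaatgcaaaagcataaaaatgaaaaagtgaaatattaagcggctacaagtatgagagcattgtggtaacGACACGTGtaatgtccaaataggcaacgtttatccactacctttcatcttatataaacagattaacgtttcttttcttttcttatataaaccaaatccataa

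Clock genes changed in both directions. Of 24 tested members 5 were called higher and 4 lower, against 1.88 % and 1.11 % of all tested genes. For 17 of the 24 the libraries of both groups did not overlap, against 20.2 % of all tested genes. Without 1 library, 3 to 6 were higher and 3 to 4 lower. Of the 9 called, 5 had the same call in lst8-1 against Col0. RVE8, a MYB-like activator of evening genes, stood at 36.1, 39.0 and 38.9 CPM in yak1lst8-1, against 19.9, 17.8 and 21.2 CPM in yak1 (0.95 ± 0.14, adjusted p = 0.000781). The other 4 clock genes that rose were named after their values were seen. LHY, a core morning repressor, stood at 86.3, 104 and 111 CPM in yak1lst8-1 and at 47.1, 47.9 and 68.1 CPM in yak1 (0.88 ± 0.15, adjusted p = 0.00256). LNK2, a coactivator of RVE8, rose by 0.74 ± 0.14 (adjusted p = 0.00548). CCA1 and RVE1 rose with adjusted p of 0.0404 and 0.0479, and both calls ended without yak1lst8-1 replicate 2 or 3 or yak1 replicate 1 or 2 (RVE1 also without yak1 replicate 3), at adjusted p of up to 0.154 and 0.186.

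The 4 clock genes called lower were PRR3, PCL1, FKF1 and GRP7. PRR3, a pseudo-response regulator, stood at 6.004, 5.20 and 4.14 CPM in yak1lst8-1 and at 14.8, 11.4 and 9.58 CPM in yak1 (-1.21 ± 0.18, adjusted p = 0.00116). PCL1, also named LUX, the DNA-binding part of the evening complex, stood at 21.7, 24.1 and 22.8 CPM in yak1lst8-1 and at 32.4, 31.6 and 32.9 CPM in yak1 (-0.50 ± 0.08, adjusted p = 0.00135). FKF1, a blue light receptor of the flowering pathway, stood at 30.6, 25.6 and 21.99 CPM in yak1lst8-1 and at 42.9, 42.1 and 40.1 CPM in yak1 (-0.67 ± 0.11, adjusted p = 0.0015). All 3 genes were lower in every double mutant library than in any yak1 library. The RNA-binding protein gene GRP7, named after its values were seen, fell by 0.68 (SE 0.16, adjusted p = 0.0264), and that call ended without any yak1lst8-1 library and without yak1 replicate 1 or 2, at adjusted p of up to 0.135. RVE8 and PRR3 differed in the same direction in lst8-1 against Col0 (0.92 ± 0.16 and -1.05 ± 0.16), while PCL1 and FKF1 differed there by -0.11 ± 0.07 and -0.12 ± 0.10. The interaction was -0.39 ± 0.11 for PCL1 (adjusted p = 0.0534) and -0.55 ± 0.15 for FKF1 (adjusted p = 0.0467). Clock gene levels also differed between the backgrounds. In yak1lst8-1, yak1, lst8-1 and Col0, CCA1 averaged 128, 69.6, 45.4 and 21.3 CPM. In that order FKF1 averaged 26.05, 41.7, 73.7 and 80.4 CPM, and PCL1 22.9, 32.3, 44.6 and 48.25 CPM. LHY, RVE8 and RVE1 were likewise higher, and GRP7 lower, in both yak1 lines than in lst8-1 or Col0. LNK2 and PRR3 did not separate this way. The PCL1 and FKF1 interactions thus compare backgrounds with unlike clock gene levels. The labels give no time of harvest, so a difference in the time of day between the groups' samples was not tested.

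**Figure D5:**
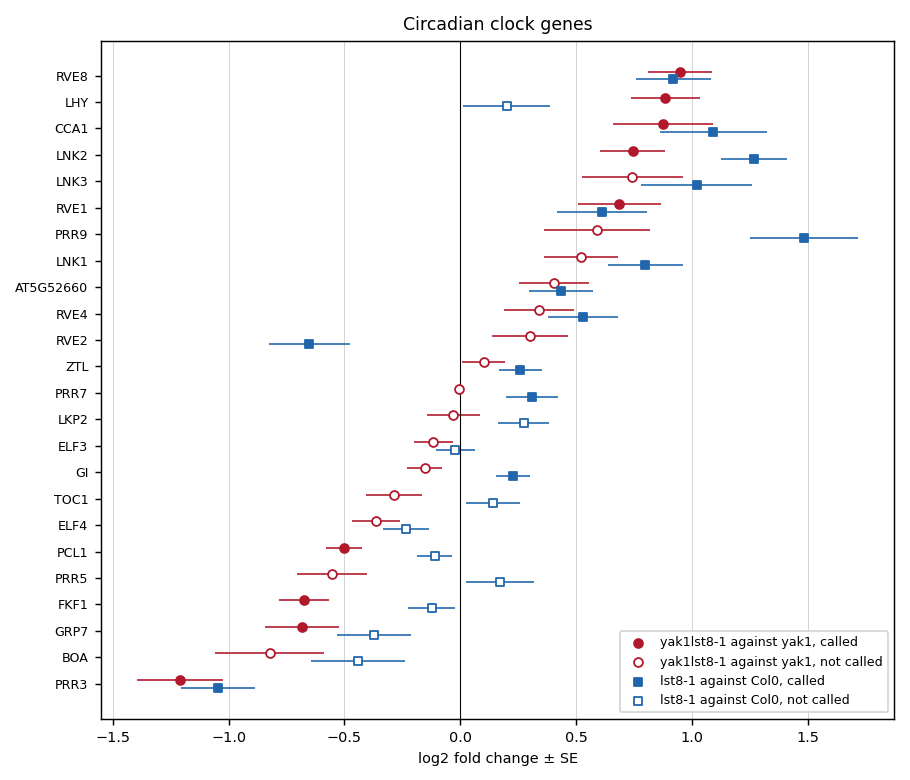
Log2 fold change ± SE of the 24 tested clock genes in yak1lst8-1 against yak1 (circles) and lst8-1 against Col0 (squares); filled symbols are called, and SE is left out where the test statistic was near 0. RVE8, LHY, CCA1, LNK2 and RVE1 are called higher and PRR3, GRP7, FKF1 and PCL1 are called lower in the double mutant.

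The evening element AAAATATCT, bound by CCA1, LHY and RVE8, was in the promoter window of 30 of 229 genes called lower (13.1 %), of 12 of 387 called higher (3.1 %) and of 2.98 % of all windows. Printed below are 3 such promoters of genes that were lower in yak1lst8-1: PCL1 (chr3:17182792-17183061, plus strand), FKF1 (chr1:25508389-25508658, plus strand) and SEX1 (chr1:3590909-3591178, minus strand), the last a starch gene. The element, in capitals, may be on either strand, where it reads AGATATTTT. FKF1 holds 2 copies.
PCL1: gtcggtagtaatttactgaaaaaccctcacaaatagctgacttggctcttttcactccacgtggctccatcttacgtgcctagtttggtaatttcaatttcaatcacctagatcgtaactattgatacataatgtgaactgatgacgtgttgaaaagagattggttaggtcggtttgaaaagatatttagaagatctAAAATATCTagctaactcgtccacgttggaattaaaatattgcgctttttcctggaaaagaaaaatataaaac
FKF1: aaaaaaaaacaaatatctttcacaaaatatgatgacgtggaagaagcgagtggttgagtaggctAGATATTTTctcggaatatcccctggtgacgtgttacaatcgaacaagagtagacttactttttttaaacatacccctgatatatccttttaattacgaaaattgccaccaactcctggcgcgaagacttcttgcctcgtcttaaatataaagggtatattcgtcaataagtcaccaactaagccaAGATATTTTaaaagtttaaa
SEX1: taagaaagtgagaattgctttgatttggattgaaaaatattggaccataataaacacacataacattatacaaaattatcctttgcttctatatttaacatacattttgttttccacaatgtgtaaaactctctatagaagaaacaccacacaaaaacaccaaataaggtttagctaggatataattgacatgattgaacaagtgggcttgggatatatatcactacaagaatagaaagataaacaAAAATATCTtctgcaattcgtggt

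Starch genes changed in both directions. Of 18 tested starch synthesis genes 3 were called higher and none lower, and of 18 starch degradation genes 1 was higher and 3 were lower. Over all tested genes 1.88 % were called higher and 1.11 % lower. GBSS1, the granule-bound synthase that makes amylose, stood at 64.8, 81.5 and 77.7 CPM in yak1lst8-1 and at 30.1, 29.2 and 39.5 CPM in yak1 (1.18 ± 0.16, adjusted p = 0.000586). The starch synthase genes SS2 and SS3 rose by 0.35 ± 0.07 and 0.37 ± 0.08 (adjusted p = 0.0112 and 0.0115). The SS2 call ended without yak1 replicate 2 (adjusted p = 0.0553) and the SS3 call without yak1lst8-1 replicate 2 or yak1 replicate 1 (adjusted p of up to 0.0699). BAM9, a beta-amylase-like protein, stood at 62.7, 68.8 and 67.0 CPM in yak1lst8-1 and at 32.8, 35.4 and 42.5 CPM in yak1 (0.84 ± 0.13, adjusted p = 0.00146).

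Among starch-degrading enzymes, PHS2, the cytosolic glucan phosphorylase, fell by 0.51 (SE 0.08, adjusted p = 0.00107). ISA3, a debranching enzyme, fell by 0.44 (SE 0.09, adjusted p = 0.0123), and SEX1, the glucan water dikinase that starts breakdown, by 0.46 (SE 0.11, adjusted p = 0.0253). The calls of ISA3 and SEX1 ended without yak1lst8-1 replicate 3 or yak1 replicate 1 or 2, and SEX1 also without yak1lst8-1 replicate 2, at adjusted p of up to 0.0885 and 0.124. In a fit of only the groups compared, adjusted p was 0.0995 for ISA3 and 0.13 for SEX1. Without yak1 replicate 3, 7 starch degradation genes were called lower. All 4 called degradation genes had the same call in lst8-1 against Col0. Of the 3 called synthesis genes 1, GBSS1, had the same call there. SS2 and SS3 differed by 0.14 and -0.0075 in lst8-1 against Col0 and were not called (adjusted p = 0.1735 and 0.956).

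Of 30 sugar starvation and amino acid breakdown genes, 2 were called higher and 3 lower, against 1.88 % and 1.11 % of all tested genes. The median was 0.03. ERD5, proline dehydrogenase, stood at 140.3, 106 and 92.4 CPM in yak1lst8-1 and at 75.0, 65.1 and 58.9 CPM in yak1. It rose by 0.77 ± 0.13 (adjusted p = 0.00194, and 0.0779 in a fit of only the groups compared) here and by 2.76 ± 0.13 in lst8-1 against Col0, with an interaction of -1.99 ± 0.18 (adjusted p = 6.38e-06). GDH2, a glutamate dehydrogenase, rose by 0.68 ± 0.17 (adjusted p = 0.0333, and 0.189 in a fit of only the groups compared). The dormancy-associated genes DRM2 (AT2G33830) and DYL1, both raised by sugar shortage, fell by 0.66 (SE 0.16, adjusted p = 0.0382) and 0.62 (SE 0.16, adjusted p = 0.0408). The third lower gene was the sugar transporter STP4 (-0.26 ± 0.07, adjusted p = 0.0417). The GDH2, DRM2, DYL1 and STP4 calls each ended without yak1lst8-1 replicate 1 or yak1 replicate 2 or 3, and each but DYL1 also without yak1lst8-1 replicate 2, each but GDH2 without yak1lst8-1 replicate 3, and DRM2 and STP4 without yak1 replicate 1, at adjusted p of up to 0.147, 0.119, 0.137 and 0.16. In lst8-1 against Col0, 13 of the 30 were called higher and 4 lower, against 14.1 % and 13.4 % of all tested genes. Of the 5 genes called in yak1lst8-1 against yak1, 4 had the same call there. The interaction was called for 5 of the 30, all negative. Of 11 inositol and raffinose genes, the galactinol synthase genes GolS2 (1.65 ± 0.40) and GolS3 (1.02 ± 0.25) were called higher, both at adjusted p = 0.0293. Both calls ended without yak1lst8-1 replicate 1 or any yak1 replicate, GolS2 also without yak1lst8-1 replicate 2 and GolS3 without replicate 3, at adjusted p of up to 0.14 and 0.142.

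Sulfur starvation genes were called only in 1 direction. Of 20 tested members 5 were called higher and none lower, against 1.88 % and 1.11 % of all tested genes. The median was 0.28. At an unadjusted p under 0.05 13 were higher and 1 lower. Log2 fold changes were positive for 16 and negative for 4. SDI1, a repressor of glucosinolate synthesis induced by sulfur deficiency, stood at 10.6, 12.9 and 8.71 CPM in yak1lst8-1, against 1.86, 2.51 and 2.15 CPM in yak1 (2.298 ± 0.187, adjusted p = 1.43e-06). LSU1, a small protein of the low sulfur response, stood at 9.27, 11.3 and 8.57 CPM in yak1lst8-1 and at 3.10, 3.57 and 3.47 CPM in yak1 (1.51 ± 0.18, adjusted p = 0.000189). The groups did not overlap for SDI1 or LSU1. LSU3 rose by 1.48 ± 0.26 (adjusted p = 0.00284) here and differed by 0.07 ± 0.23 in lst8-1, with an interaction of 1.41 ± 0.35 (adjusted p = 0.0322). The sulfate transporter SULTR2;1 rose by 0.61 ± 0.10 (adjusted p = 0.00151). APR2, the sulfate-reducing enzyme, named after its values were seen, rose by 0.48 ± 0.12 (adjusted p = 0.0442), a call that ended without any yak1lst8-1 library and without yak1 replicate 1 or 2, at adjusted p of up to 0.177. In lst8-1 against Col0 the list split, with 4 members higher and 5 lower, and the interaction was called for 5 members, all positive.

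The phosphate, nitrogen and iron storage lists had 2 calls each and the iron deficiency list none, where 2.99 % of all tested genes were called. Of 15 phosphate starvation genes 2 were called higher: PAP17, a purple acid phosphatase, stood at 9.91, 8.95 and 6.64 CPM in yak1lst8-1 and at 2.76, 3.65 and 4.65 CPM in yak1 (1.21 ± 0.19, adjusted p = 0.00135), and PS2, a pyrophosphatase, rose by 1.198 ± 0.293 (adjusted p = 0.0312). The PS2 call ended without yak1lst8-1 replicate 1 or 2 or yak1 replicate 1 or 2, at adjusted p of up to 0.155. Of 29 nitrogen genes, the cytosolic glutamine synthetase genes GLN1;4 and GLN1;1 fell by 0.79 (SE 0.16, adjusted p = 0.00801) and 0.37 (SE 0.09, adjusted p = 0.0315), the GLN1;4 call ended in a fit of only the groups compared (adjusted p = 0.0577), and the GLN1;1 call ended without yak1lst8-1 replicate 2 or 3 or yak1 replicate 1 or 2, at adjusted p of up to 0.167. Of 9 iron storage genes the ferritin gene FER1 rose by 0.53 ± 0.11 (adjusted p = 0.012) and the vacuolar transporter-like gene VTL5 fell by 0.40 (SE 0.10, adjusted p = 0.0404). Both calls ended without yak1lst8-1 replicate 2 or 3 or yak1 replicate 1 or 2, VTL5 also without yak1lst8-1 replicate 1, at adjusted p of up to 0.0824 and 0.184. Of 30 iron deficiency genes none was called in yak1lst8-1 (6 higher at an unadjusted p under 0.05, 1 higher by DESeq2), while 13 were lower and 2 higher in lst8-1 against Col0. The interaction was called for 11 of them, 10 positive and 1 negative.

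Salicylic acid defence genes had a wide spread between libraries. Of 32 tested members 31 had negative log2 fold changes with a median of -0.66. Of the list 4 were called lower and none higher, against 1.11 % and 1.88 % of all tested genes. At an unadjusted p under 0.05 12 were lower and 1 higher, and DESeq2 called 6 lower. A fit of only the groups compared with edgeR called none of the 32. The median was -0.25 without yak1 replicate 1, -0.44 without yak1lst8-1 replicate 3 and -1.14 without yak1lst8-1 replicate 1. FMO1, which makes the immune signal N-hydroxypipecolic acid, stood at 5.89, 5.97 and 5.28 CPM in yak1lst8-1, against 38.8, 18.25 and 12.2 CPM in yak1 (-2.02 ± 0.33, adjusted p = 0.00258). ALD1, the aminotransferase upstream of FMO1, stood at 1.98, 2.60 and 2.64 CPM in yak1lst8-1 and at 9.59, 5.84 and 3.89 CPM in yak1 (-1.43 ± 0.29, adjusted p = 0.00983). Both genes were higher in each yak1 library than in any double mutant library. In the fit of only the groups compared, adjusted p was 0.114 for FMO1 and 0.088 for ALD1.

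The pathogenesis-related genes PR2 and PR1 had the lowest log2 fold changes of the list. PR2, a beta-1,3-glucanase, was at 2.099, 0.770 and 0.0714 CPM in yak1lst8-1 and at 14.6, 7.22 and 4.999 CPM in yak1 (-3.08 ± 0.62, adjusted p = 0.0126). PR1 was at 0.583, 0.193 and 0 CPM in yak1lst8-1, where the 0 allows up to 0.202 CPM, and at 10.7, 3.41 and 0.833 CPM in yak1 (adjusted p = 0.0474). The calls of ALD1 and PR2 ended without yak1 replicate 1 and without yak1lst8-1 replicate 1 for ALD1 or 2 for PR2, at adjusted p of up to 0.072 and 0.0647, and the PR1 call without any yak1lst8-1 library or yak1 replicate 1 or 2, at adjusted p of up to 0.171. Without yak1 replicate 1 the list had 1 member called higher and 1 lower, and without yak1 replicate 3 it had 10 lower. The summed level of the list was 430 to 877 CPM in yak1lst8-1 and 605 to 1556 CPM in yak1, so the groups overlapped. Of the 4 called genes, 3 were also called lower in lst8-1 against Col0.

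Of 18 jasmonate genes, VSP1 and VSP2 were called higher, as given above, and AOC2, allene oxide cyclase of jasmonate synthesis, was lower. AOC2 stood at 81.6, 81.4 and 75.5 CPM in yak1lst8-1 and at 118, 109.7 and 112 CPM in yak1 (-0.51 ± 0.08, adjusted p = 0.00138). Among cold-regulated genes, KIN1 rose, with 39.7, 35.8 and 24.3 CPM in yak1lst8-1 and 14.9, 8.52 and 12.2 CPM in yak1 (1.48 ± 0.27, adjusted p = 0.00625), while COR27 and COR413IM1 fell. KIN1 differed by 0.36 ± 0.36 in lst8-1 against Col0, and its interaction of 1.13 ± 0.45 missed the threshold (adjusted p = 0.202).

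Glucosinolate genes showed a single call in 12 indolic and none in 17 aliphatic synthesis genes. MYB34, the activator of indolic glucosinolate synthesis, stood at 39.5, 37.9 and 35.2 CPM in yak1lst8-1, against 24.2, 22.6 and 23.0 CPM in yak1 (0.69 ± 0.08, adjusted p = 0.000159). The aliphatic list had 1 member higher and 1 lower at an unadjusted p under 0.05 and no call by DESeq2. In lst8-1 against Col0, 12 of its 17 members were lower, and the interaction was positive and called for 6. CYP79F1, the entry enzyme of that pathway, averaged 25.6 ± 5.5 CPM in yak1lst8-1 and 22.2 ± 5.3 CPM in yak1, against 3.65 ± 0.15 CPM in lst8-1 and 27.7 ± 8.5 CPM in Col0 (SD, n = 3 each), with an interaction of 3.13 ± 0.55 (adjusted p = 0.00781). ESM1, a modifier of glucosinolate breakdown, averaged 62.1 ± 2.5 CPM in yak1lst8-1 and 96.8 ± 6.1 CPM in yak1 (-0.64 ± 0.14, adjusted p = 0.0211), against 4.38 CPM in lst8-1 and 64.3 CPM in Col0. NSP1, a nitrile specifier, rose by 0.57 ± 0.13 (adjusted p = 0.0221). The calls of ESM1 and NSP1 ended without yak1lst8-1 replicate 1 or 2 or yak1 replicate 2, ESM1 also without yak1lst8-1 replicate 3 or yak1 replicate 1 and NSP1 without yak1 replicate 3, at adjusted p of up to 0.107 and 0.125.

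Lists of growth genes, a process TOR is known to act on, are described next. Over all tested genes 2.99 % were called in yak1lst8-1 against yak1. At that share short lists may hold no call, so an absence of calls is not a result about their genes. None of 37 cytosolic ribosomal protein genes was called (1 lower at an unadjusted p under 0.05, none by DESeq2), while 35 had negative log2 fold changes with a median of -0.16. Their summed level was 7055 to 7791 CPM in yak1lst8-1 and 7809 to 8829 CPM in yak1, without overlap, and the count of calls depended on the model, as given with the processing alternatives. None of 31 ribosome biogenesis genes was called or reached an unadjusted p under 0.05, and none was called by DESeq2. In lst8-1 against Col0 12 of these 31 were higher, and the interaction was negative and called for 3. None of 32 S phase and mitosis genes was called (3 lower at an unadjusted p under 0.05, none by DESeq2), with 28 negative and a median of -0.21, while 8 were lower in lst8-1 against Col0. The 34 autophagy, 9 D-type cyclin, 16 CDK inhibitor, 14 flavonoid, 12 ethylene synthesis, 10 heat shock and 12 flowering time genes had no call by edgeR or by DESeq2, and each list had at most 3 members in either direction at an unadjusted p under 0.05. The 53 nuclear photosynthesis genes had no call by edgeR, 5 higher at an unadjusted p under 0.05 and 1 higher by DESeq2. Among 24 expansin and xyloglucan genes EXPA17 fell by 0.83 (SE 0.20, adjusted p = 0.0275), and among 31 auxin, cytokinin and brassinosteroid genes the cytokinin-induced ARR3 rose by 0.82 ± 0.19 (adjusted p = 0.0244). Both calls ended without yak1lst8-1 replicate 1 or yak1 replicate 2 or 3, EXPA17 also without yak1lst8-1 replicate 2 and ARR3 without replicate 3, at adjusted p of up to 0.134 for each. In a fit of only the groups compared, adjusted p was 0.188 for EXPA17 and 0.0799 for ARR3.

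The called genes were spread over the genome. Chromosomes 1 to 5 had 3.13, 3.15, 2.93, 2.84 and 2.93 % of their tested genes called. Among the 50 tested genes on each side of LST8-1, 2 were higher and 2 lower (4.0 %): HYH and PAP17, and BGLU44 and MOS4. Among the 50 on each side of YAK1, 4 were higher and 1 lower (5.0 %). These were PEN3, its neighbour CYP716A2, scpl1 and AT5G35180, and the lower gene CAC2.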

How the data were processed

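RNA was sequenced from whole plants of 6 genotypes with 3 libraries each. Per the labels' protocols, the authors selected polyadenylated RNA and made stranded single-end libraries; per the submitters' processing notes, TopHat2, Bowtie2 and TAIR10 were used, with versions not given in the sources used here. Per the file headers, the deposited values are counts of reads per gene model that map to a single place, for 33602 gene models. Reads mapping to several places, 2.08 to 2.22 % in the 6 libraries, were not counted, which lowers near-identical gene copies. Whether counting used the strand is not given, so genes overlapping on opposite strands are uncertain. Gene model lengths in the same files, of no set unit, were not used.

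Counts were fitted in R 4.3.3 with edgeR 4.0.16 over all 18 libraries (TMM, filterByExpr, glmQLFit with robust dispersion, genotype as the term, 12 residual degrees of freedom). Contrasts were yak1lst8-1 minus yak1, lst8-1 minus Col0, and their difference, the interaction. Tests were two-sided, with Benjamini-Hochberg adjustment over 20619 genes and a threshold of 0.05. SE is the absolute log2 fold change over the square root of F, left out where F was near 0. Levels are TMM-scaled CPM. The common coefficient of variation was 10.8 %. The limit of a count of 0 is 3 counts and covers counting error only. On simulated counts with the sizes of these libraries, 38 % of changes of 0.5 and 79 % of changes of 1 on the log2 scale were recovered, with 7 false calls in 124.

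Gene lists, members and the naming rule were chosen with earlier results of these data known. Named were all TOR list members; the 8 largest rises and falls of at least 5 CPM without overlap; up to 4 called members of each list with the smallest adjusted p; the 6 largest interaction differences in each direction; and the 6 genes in each direction called alike in both backgrounds with the largest smaller fold change. Symbols and promoters came from RefSeq TAIR10.1, matched by gene identifier (32835 of 33602 gene models). Alternatives were RLE size factors, library totals, no low-count filter, DESeq2 1.42.0, a replicate block, a fit of only the groups compared, and leaving out each library; 1 more, the block within the groups compared, was chosen after seeing the data. Figures used matplotlib. All libraries of yak1lst8-1 and yak1 differed by more than counting noise, so none was treated as a duplicate.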

Additional observations from a re-analysis of the deposited data

Results flagged for a closer look

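For 20 of the named genes the response to loss of LST8-1 differed between the yak1 and Col0 backgrounds by edgeR's quasi-likelihood test of the interaction (adjusted p below 0.05). Each value is the log2 fold change of yak1lst8-1 against yak1 minus that of lst8-1 against Col0. 12 of these genes were named for the size of this difference, so its size is a description.

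Genes with a smaller rise, or no rise, in the yak1 background were ACS9, an ethylene synthesis gene (-3.11), HIS1-3 (-2.73), ERD5 (-1.99), UNE11, a pectin methylesterase inhibitor family gene (-1.91), CYP82F1 (-1.74), BCAT2, a branched-chain aminotransferase gene (-1.64), RSL4 (-1.29), CYP707A1 (-1.21), GDH2 (-1.08) and THAD (-1.01). FKF1 (-0.55) was instead lower in yak1lst8-1 than in yak1.

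ACS9 stood at 3.21, 2.31 and 1.07 CPM in yak1lst8-1 and at 1.52, 0.162 and 0.486 CPM in yak1, and averaged 7.70 CPM in lst8-1 and 0.287 CPM in Col0. CYP82F1, a cytochrome P450 gene, stood at 47.2, 39.8 and 33.8 CPM in yak1lst8-1 and at 20.6, 18.25 and 16.8 CPM in yak1, a rise of 1.12 ± 0.14 (SE, adjusted p = 0.000216). It averaged 91.9 CPM in lst8-1 and 12.7 CPM in Col0.

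Genes with a smaller fall, or no fall, in the yak1 background were COR413IM1 (3.40), ESM1 (3.25), CYP82C4, an iron deficiency gene (3.14), CYP79F1 (3.13), MYB29, an activator of aliphatic glucosinolate synthesis (2.98), PP2-A6, a phloem lectin family gene (2.84), and EXPA17 (1.34). CYP97B3 (2.83) and LSU3 (1.41) were instead higher in yak1lst8-1 than in yak1. MYB29 averaged 10.8 ± 1.9 CPM in yak1lst8-1 and 7.77 ± 1.35 CPM in yak1, against 1.49 CPM in lst8-1 and 8.55 CPM in Col0.

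Over 19 alternatives, 11 of the 20 interactions kept their call in each. The other 9, ACS9, BCAT2, CYP82C4, EXPA17, FKF1, GDH2, LSU3, THAD and UNE11, lost it in at least 3, with adjusted p of up to 0.266 for ACS9. Each lost it in the absence of single libraries. These were of each of the 4 genotypes for ACS9, BCAT2, FKF1, LSU3, THAD and UNE11. For CYP82C4 they were of yak1lst8-1, lst8-1 and Col0, for GDH2 of yak1lst8-1 and Col0, and for EXPA17 of lst8-1. None changed direction.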

How the results depend on the processing

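With RLE size factors, library totals, no low-count filter or DESeq2, the count of genes called in yak1lst8-1 against yak1 stayed between 538 and 829 (main 616). A replicate block gave 1601 calls (989 higher, 612 lower), which include all 616, and 1889 for the interaction (1038 positive, 851 negative). A fit of only the groups compared gave 333 calls (233 higher, 100 lower) and 338 for the interaction (209 and 129). That fit with a replicate block, chosen after seeing the data, gave 3156 (1721 and 1435) and 1510 (889 and 621). Counts for lst8-1 against Col0 were 4385 to 7432 in these fits. Without 1 library there were 299 to 754 calls (191 to 454 higher, 98 to 300 lower) in yak1lst8-1 against yak1, 347 to 839 (208 to 513 positive, 125 to 326 negative) for the interaction, and 4134 to 5000 for lst8-1 against Col0.

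Same-numbered libraries of yak1lst8-1 and yak1 correlated in their deviations from the group means at 0.554, 0.07 and 0.494 for numbers 1, 2 and 3. Between numbers 1 and 3 the values were -0.508 and -0.505. Deviations of 3 libraries from their mean sum to 0, so a middle library can have a low value with or without pairing. The second value therefore does not decide whether the numbers are pairs. The labels do not give pairs, so the block is an alternative only. Each yak1lst8-1 library correlated best with its own number in yak1, which is a hint from the data and not from the design. With the replicate block, and with the block in the fit of only the groups compared, the calls were 2 and 23 of 37 ribosomal protein genes lower, 16 and 13 of 26 root hair genes higher, and 8 and 21 of 32 salicylic acid defence genes lower (1 higher in the second). In the second, FMO1, RD29A and RHS18 missed the threshold (adjusted p = 0.0665, 0.25 and 0.0923).

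Over 13 alternatives, 35 of 74 called genes that are named or on a list kept their call in each, 39 lost it in at least 1, and none changed direction. Which cause separates these fits was not tested. Depth limits low genes: with 3 libraries a group, changes under 2-fold were often missed in simulated counts, so a gene or list without a call is not shown to be unaffected.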
